A study of Mus musculus with 15 samples.

Results

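The genes described here were 10 markers of microglia, complement and chemokine signalling in the retina, namely *Aif1*, *Csf1r*, *Tyrobp*, *Ctss*, *Cd68*, *Lgals3*, *C1qa*, *C1qb*, *C3* and *Ccl12*. Every probe that the array's probe-to-gene table pairs with 1 of these symbols was taken, which gave 12 of 29922 probes and 10 of 16675 gene symbols. The retinas were those of C57BL/6J mice with oxygen-induced retinopathy (OIR), which were kept in 75±2% oxygen from postnatal day (P) 7, and of wild-type C57BL/6J mice that breathed room air throughout. OIR retinas were taken at P8 after 1 day in oxygen (P8-O), at P12 after 5 days (P12-O) and at P13, with 1 day of room air behind them (P13-O). They were compared with age-matched normal retinas (P8-N, P12-N and P13-N). Normal retinas of P9 were compared with those of P30 (P9-N/P30-N), and P13-O retinas with P9-N retinas (P13-O/P9-N). Each of the 5 comparisons had 3 two-colour arrays, and each array set 1 RNA pool of 10 retinas of 5 mice against another.

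Microglia are the resident macrophages of the retina and live on signals through the receptor *Csf1r*. When they are activated, by injury or by dying cells, they round up, engulf debris and raise lysosomal and secreted proteins. C1q opens the classical complement pathway on a target surface, C3 is the component on which all complement pathways meet, and chemokines draw leukocytes to a tissue. In developing neural tissue, C1q and C3 also tag synapses that microglia then remove.

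All values are log2 ratios of the first-named sample over the second, and a positive value means more RNA in the OIR retina (in P9-N/P30-N, more at P9). A gene passed the test where the limma mean of its probe differed from 0 at an adjusted p under 0.05 over all probes tested, with at least 2 of the 3 arrays measured. A ratio carries no level, so the genes were not ranked by abundance. In whole retina, fewer cells of a type and less RNA per cell cannot be told apart.

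Of the 12 probes, 9 had a value on at least 1 array and 7 had a value on all 15 arrays. *Aif1*, which encodes the calcium-binding microglial marker IBA1, and *Ctss*, a lysosomal cysteine protease, were blank on every array, as was probe 1 of *Csf1r*. *Tyrobp*, the signalling adaptor of *Trem2*, had a value on 6 arrays. How blanks were assigned is not given in the sources used here, so a blank is not read as absence. Of 8 microglial markers, 7 were on the array and 4 had a value anywhere, which were *Csf1r*, *Tyrobp*, *Cx3cr1* and *Trem2*. The homeostatic markers *Tmem119* and *P2ry12* were blank throughout. The description of resident microglia therefore rests mainly on 1 probe of *Csf1r*.

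The stretches before the transcription start are shown for 5 of the members that passed the test in a comparison. Of these members, 3 (*Lgals3*, *C3* and *Ccl12*) were higher together in 2 comparisons, both with P13-O. Each stretch holds 250 bases in the RefSeq annotation of GRCm38.p6. It is read 5′ to 3′ on the strand of the gene and ends at the base before its start. They lie at chr17:57228137-57228386 (*C3*, minus strand), chr14:47373610-47373859 (*Lgals3*, plus strand), chr11:82101595-82101844 (*Ccl12*, plus strand), chr11:69666171-69666420 (*Cd68*, minus strand) and chr4:136886201-136886450 (*C1qb*, minus strand). Capitals mark matches, on either strand, to GAGGAA (the core of sites for the myeloid factor PU.1), TGANTCA (AP-1) and TTNNGNAA (C/EBP).
C3: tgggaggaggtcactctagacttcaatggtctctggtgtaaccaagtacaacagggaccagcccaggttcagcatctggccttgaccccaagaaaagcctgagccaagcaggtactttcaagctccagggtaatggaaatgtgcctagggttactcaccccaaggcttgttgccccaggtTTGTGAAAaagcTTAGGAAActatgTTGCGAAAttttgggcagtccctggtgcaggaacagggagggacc
Lgals3: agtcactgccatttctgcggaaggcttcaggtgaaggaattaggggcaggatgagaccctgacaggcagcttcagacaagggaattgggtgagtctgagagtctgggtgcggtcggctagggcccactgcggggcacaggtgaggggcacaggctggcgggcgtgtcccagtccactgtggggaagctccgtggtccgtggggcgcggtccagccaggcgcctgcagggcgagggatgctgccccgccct
Ccl12: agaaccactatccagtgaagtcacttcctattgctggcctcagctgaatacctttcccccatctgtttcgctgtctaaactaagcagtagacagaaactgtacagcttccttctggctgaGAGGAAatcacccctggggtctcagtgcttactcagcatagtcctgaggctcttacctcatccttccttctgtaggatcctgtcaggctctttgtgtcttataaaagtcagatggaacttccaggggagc
Cd68: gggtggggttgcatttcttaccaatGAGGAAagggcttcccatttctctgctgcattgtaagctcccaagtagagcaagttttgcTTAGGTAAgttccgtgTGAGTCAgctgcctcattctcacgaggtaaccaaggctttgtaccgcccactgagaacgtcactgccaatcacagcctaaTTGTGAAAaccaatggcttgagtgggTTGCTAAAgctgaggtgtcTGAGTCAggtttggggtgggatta
C1qb: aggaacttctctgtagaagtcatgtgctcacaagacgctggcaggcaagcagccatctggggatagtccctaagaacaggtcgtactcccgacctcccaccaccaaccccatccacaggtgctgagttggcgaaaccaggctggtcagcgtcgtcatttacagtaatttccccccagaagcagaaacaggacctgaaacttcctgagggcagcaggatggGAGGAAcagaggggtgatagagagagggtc

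The *C3* stretch held 3 C/EBP matches, which began 70, 58 and 45 bases before the start. The *Cd68* stretch held 1 PU.1 match, 2 AP-1 matches and 3 C/EBP matches. *C1qb* and *Ccl12* held 1 PU.1 match each, and the *Lgals3* stretch held 0 matches to any of the motifs searched. No RefSeq entry was at hand for *C1qa* and *Tyrobp*, and *Csf1r* was left out of the search. The search thus covered 7 of the 10 members, and the stretches of *Aif1* and *Ctss* also had 1 PU.1 match each. The kappa B motif and the hypoxia response core ACGTG had 0 matches in all 7. Among 32851 RefSeq stretches of the same length, 23.3% held GAGGAA, 6.75% TGANTCA, 36.8% TTNNGNAA, 4.11% the kappa B motif and 16.6% ACGTG. A match in letters is a description and not a measured binding site.

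One day after the return to room air (P13-O/P13-N), 4 of the 7 member genes tested were higher in the OIR retina and 0 lower. They were *Lgals3*, *Ccl12*, *C3* and *Cd68*, at 1.55-fold to 2.16-fold. Among all 14436 probes tested, 0.963% were higher and 0.547% lower. The study itself lists *Lgals3* and *Ccl12* as higher in this comparison, from the same arrays. The members were chosen with such results known, so their count is not independent of these data. The fold was above 2 for *Lgals3* and *Ccl12* alone, and *Csf1r* and *C1qa* did not pass. The median over the 8 member probes tested was 0.57, beside -0.01 over all probes.

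*Lgals3* encodes galectin-3, a sugar-binding lectin that activated microglia and macrophages raise. It read 1.43, 1.30 and 0.59 on P13-O/P13-N replicates 1, 2 and 3, with a mean of 1.11 (SE 0.15, 95% interval 0.78 to 1.43, limma adjusted p = 0.002). The SE and interval, here and below, come from the limma fit of all comparisons together. They do not give the spread of these arrays, whose SD was 0.45. Replicates 1 and 2 were close together and replicate 3 was lower, and all 3 were above every value at P8 and P12. In P8-O/P8-N the arrays read 0.08, -0.11 and 0.10, and in P12-O/P12-N -0.08, -0.45 and -0.17. In hyperoxia the readings thus lay around or below 0, with means of 0.03 (adjusted p = 0.97) and -0.23 (adjusted p = 0.39).

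*C3* read 0.90, 1.03 and 0.57 in P13-O/P13-N, with a mean of 0.83 (SE 0.10, 95% interval 0.62 to 1.04, limma adjusted p = 0.00061, 1.78-fold). The 3 arrays were all positive, and replicate 3 was again the lowest. In P8-O/P8-N it read -0.24, -0.13 and -0.04, and in P12-O/P12-N -0.26, -0.07 and -0.11. All 6 readings in hyperoxia were slightly below 0, yet their means of -0.13 and -0.14 did not pass the test (adjusted p = 0.66 and 0.41).

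*Ccl12*, a mouse chemokine that attracts monocytes through *Ccr2*, read 1.55, 1.12 and 0.45 in P13-O/P13-N. Its mean was 1.04 (SE 0.18, limma adjusted p = 0.011, 2.06-fold). Its 3 arrays were farther apart than those of *C3*, and without replicate 1 or without replicate 2 the call was lost (highest adjusted p = 0.14, mean 0.78 at the lowest). Unlike *C3*, *Ccl12* read mostly above 0 in hyperoxia, at 0.51, 0.30 and 0.05 in P8-O/P8-N and at -0.06, 0.42 and 0.59 in P12-O/P12-N. Those means of 0.29 and 0.32 did not pass (adjusted p = 0.61 and 0.32).

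*Cd68* encodes a lysosomal membrane glycoprotein of phagocytes and had 2 probes. Probe 2 read 0.91, 0.59 and 0.41 in P13-O/P13-N, with a mean of 0.64 (SE 0.11, limma adjusted p = 0.0079, 1.55-fold). The call was lost without replicate 1 or without replicate 2 (highest adjusted p = 0.09). Probe 1 had a reading on replicates 1 and 3, 0.72 and 0.29, and their mean of 0.50 did not pass (adjusted p = 0.081). Both probes were thus highest on replicate 1, and the call rested on probe 2.

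The members of the C1q complex and the microglial receptor had smaller mean ratios at this age than the genes that passed, though both C1q chains read above 0. *C1qb*, the B chain of C1q, read 0.39, 0.28 and 0.55, with a mean of 0.41 (95% interval 0.19 to 0.63, limma adjusted p = 0.077). It passed when arrays were scaled to the same spread (0.041), when arrays were weighted (0.013) and when only probes present on all 15 arrays were tested (0.041). The weighted fit called many more probes of all, 778 higher and 857 lower, beside 139 and 79 in the main fit. *C1qa*, the A chain, read 0.05, 0.21 and 0.23 (mean 0.16, adjusted p = 0.57). *Csf1r* probe 2 read -0.24, -0.07 and 0.16, with a mean of -0.05 and a 95% interval of -0.25 to 0.15 (adjusted p = 0.88), which bounds the difference but does not show equal levels.

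Replicate 3 of P13-O/P13-N was the lowest of its comparison for *Lgals3*, *C3*, *Ccl12* and both probes of *Cd68*, and the highest for *C1qa*, *C1qb* and *Csf1r*. Its values over all probes also spread less, with an SD of 0.234 beside 0.313 and 0.288 on replicates 1 and 2. Replicates of this comparison correlated at 0.038 to 0.46 over all probes. Without replicate 3 the 4 genes still passed, and without replicate 1 or 2 *Lgals3* and *C3* still did. A limma fit of this comparison by itself called 0 probes of all, with 5 member genes and 1466 probes at an unadjusted p under 0.05, and a one-class SAM called *Lgals3* and *C3*.

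**Figure D1:**
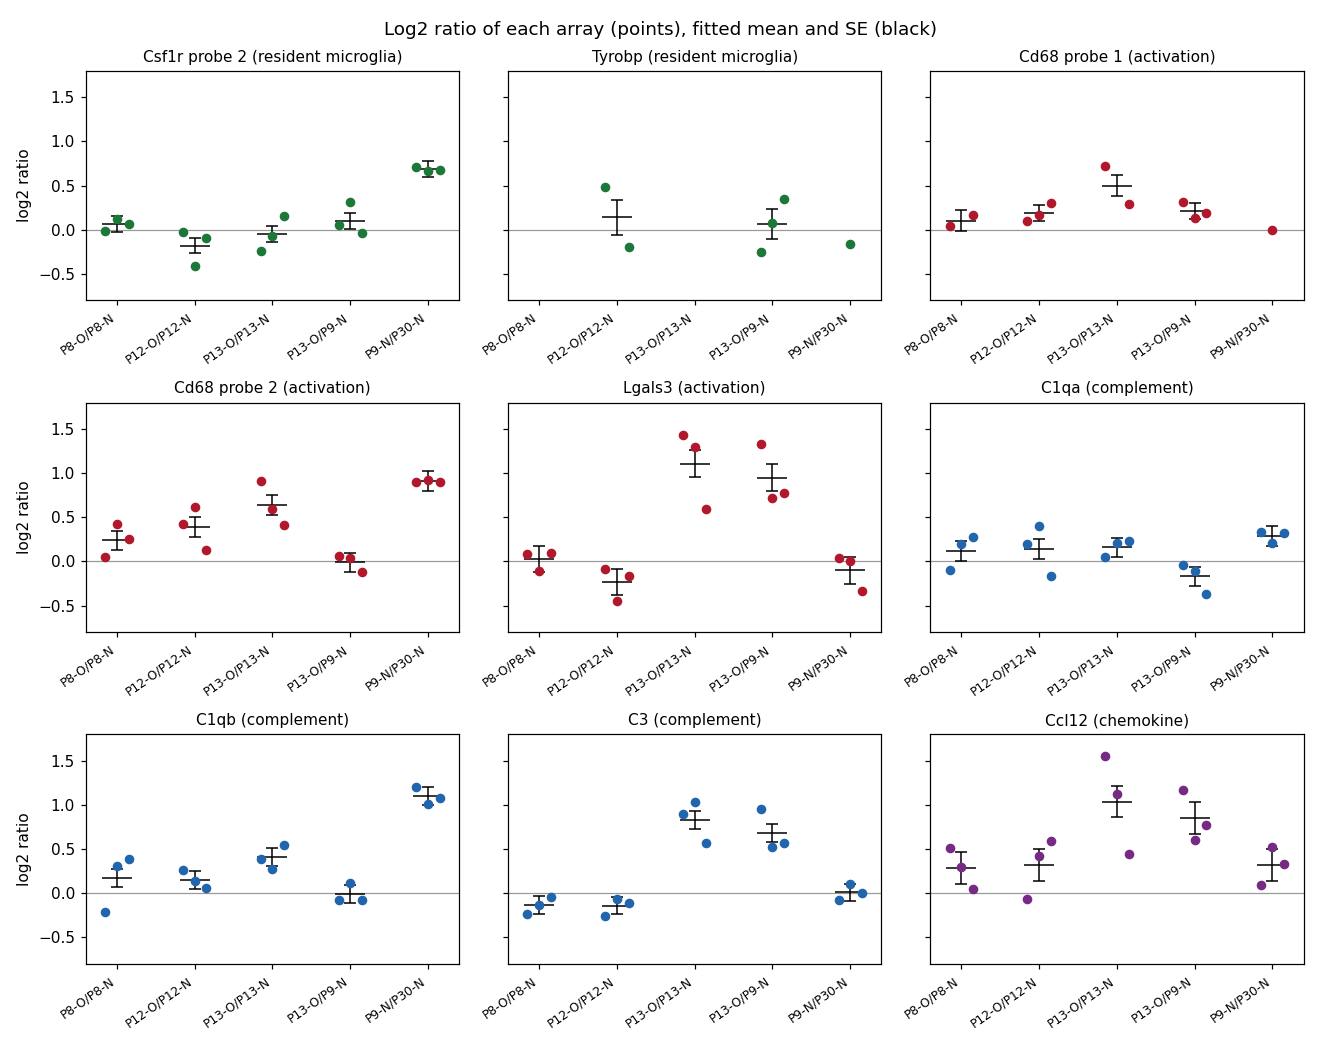
Log2 ratio (vertical axis) of the 9 member probes with a value, by comparison (horizontal axis), as 1 point per array with the fitted mean and its SE in black and colours for the role. The points of *Lgals3*, *C3* and *Ccl12* lie above 0 in both comparisons with P13-O and near 0 in P9-N/P30-N for *Lgals3* and *C3*, while those of *Csf1r*, *C1qb* and *Cd68* probe 2 lie at 0.66 to 1.21 in P9-N/P30-N.

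Whether the OIR effect itself differed between ages was tested by contrasts of the same fit. Against P8, the effect at P13 was larger by 0.97 for *C3* (SE 0.14, limma adjusted p = 0.0023) and by 1.08 for *Lgals3* (SE 0.21, adjusted p = 0.021). Of 12958 probes tested in this contrast, 1.13% were higher and 0.363% lower. The difference for *Lgals3* was lost without any 1 of P13 replicates 1 and 2 and P8 replicates 1 and 2 (up to 0.12), and that for *C3* was not lost without any single array.

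Against P12, the effect at P13 was larger by 0.98 for *C3* (SE 0.14, limma adjusted p = 0.0026) and by 1.34 for *Lgals3* (SE 0.21, adjusted p = 0.0059), where 1.78% of all probes were higher and 0.772% lower. Both kept the call without each single array. For *Ccl12* the differences of 0.75 from P8 and 0.72 from P12 did not pass (limma adjusted p = 0.23 and 0.15). Both passed with array weights (0.80 each, adjusted p = 0.025 and 0.033) and without P13 replicate 3 (1.05 and 1.02, adjusted p = 0.042 and 0.033), and without P13 replicate 1 they were 0.50 and 0.47 (adjusted p = 0.48 and 0.38). Those of *Cd68* probe 2 were 0.39 and 0.24 (adjusted p = 0.29 and 0.42). Over all probes, the fit with array weights called 574 higher against P8 and 789 against P12, beside 147 and 251 in the main fit. A difference between ages was thus called for *C3* and *Lgals3*, while that of *Ccl12* turned on the weighting of arrays and on P13 replicates 1 and 3.

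During hyperoxia 1 member gene passed the test at 1 of the 2 ages. At P8-O/P8-N 0 of 7 genes tested passed in limma in either direction, where 0.205% of all probes were higher and 0.432% lower. At an unadjusted p under 0.05 the count was 1, *Cd68*, beside 1518 of all 13659 probes, and SAM called 0. Probe 2 of *Cd68* read 0.05, 0.42 and 0.26 (mean 0.24, adjusted p = 0.41). *C1qb* read -0.21, 0.31 and 0.39 and *C1qa* -0.10, 0.20 and 0.28, so that replicate 1 lay apart from the others for both chains. Replicates of P8-O/P8-N correlated at -0.2 to 0.21, which limits what could be detected at this age.

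At P12-O/P12-N, after 5 days of oxygen, *Cd68* was the 1 gene of 8 tested that passed, where 3.2% of all probes were higher and 3.88% lower. Its probe 2 read 0.42, 0.62 and 0.13, a mean of 0.39 (SE 0.11, limma adjusted p = 0.04, 1.31-fold), and probe 1 read 0.10, 0.17 and 0.30 (mean 0.19, adjusted p = 0.26). The call was lost without any of the 3 arrays (0.058 to 0.19) and in SAM. *Csf1r* read -0.03, -0.41 and -0.10 (mean -0.18, adjusted p = 0.26). *Tyrobp* had 2 readings of opposite sign, 0.48 and -0.20. Between P12 and P8, 0 member genes differed in limma, at the adjusted threshold or at an unadjusted p under 0.05, where 0.0295% of all probes were higher and 0.00737% lower.

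In the normal retina the pattern was another. At P9 relative to P30, 4 of 7 member genes tested were higher, *C1qb*, *Cd68*, *Csf1r* and *C1qa*, and 0 were lower. This stage differed widely, with 17.5% of all probes higher and 16.2% lower in the same comparison. At P9 the deep vessels of the mouse retina are still forming and microglia are spreading through its layers, while P30 is the mature tissue.

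*C1qb* read 1.21, 1.01 and 1.08 in P9-N/P30-N, with a mean of 1.10 (SE 0.10, limma adjusted p = 2.3e-06, 2.14-fold). *C1qa* read 0.33, 0.21 and 0.32 (mean 0.29, SE 0.11, adjusted p = 0.048). Both genes lie close together on chromosome 4 and were higher at P9, *C1qb* by the larger ratio. The call of *C1qa* was lost without any of its 3 arrays (0.091 to 0.17), in SAM and with median centring, and that of *C1qb* held under each of these.

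*Csf1r* probe 2 read 0.71, 0.66 and 0.68 in P9-N/P30-N (mean 0.69, SE 0.09, limma adjusted p = 6.5e-05, 1.61-fold). *Cd68* probe 2 read 0.90, 0.92 and 0.90 (mean 0.91, SE 0.11, adjusted p = 1.7e-05, 1.88-fold). The 3 arrays of each were nearly equal, and both calls held without each single array. Probe 1 of *Cd68* had a single reading of 0.00 here and was not tested, so the rise of *Cd68* rests on 1 probe. *Tyrobp* had a single reading of -0.16.

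The genes that were highest at P13-O/P13-N did not pass here. *Lgals3* read 0.04, 0.00 and -0.33 (mean -0.10, 95% interval -0.43 to 0.23, limma adjusted p = 0.66). *C3* read -0.08, 0.10 and 0.00 (mean 0.01, 95% interval -0.20 to 0.22, adjusted p = 0.96). *Ccl12* read 0.09, 0.53 and 0.33 (mean 0.32, adjusted p = 0.21) and passed only with array weights (0.39, adjusted p = 0.012). That fit called 3804 probes of all higher, beside 2421 in the main fit. The upper bounds for *Lgals3* and *C3* were below their means at P13-O/P13-N, but the difference between these 2 comparisons was not itself tested.

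**Figure D2:**
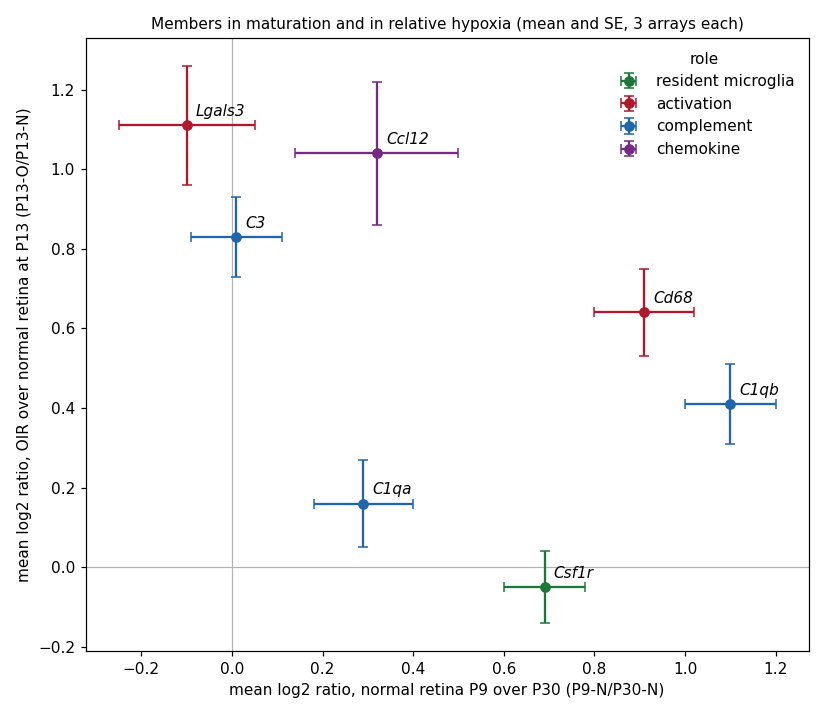
Mean log2 ratio of the 7 member genes measured in both comparisons, with colours for the role. P9-N/P30-N is on the horizontal and P13-O/P13-N on the vertical axis. Bars show the SE from the limma fit of all comparisons together, not the spread of the 3 arrays of a comparison. For *Ccl12* at P13-O/P13-N the SE was 0.18 and the SD of the arrays 0.55. For *Cd68* probe 2 at P9-N/P30-N they were 0.11 and 0.01. *Lgals3* and *C3* lie high at 1.11 and 0.83 and near 0 across, *Csf1r* lies far right at 0.69 and near 0 upward, and *Cd68* is above 0 on both axes.

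P13-O retina was also set against the normal retina of P9. The labels list its channels in the same order as for the remaining OIR arrays, and its direction was set accordingly. Its OIR pools are likely those of P13-O/P13-N and its normal pools those of P9-N/P30-N, so the values below are not independent of either. Of 8 member genes tested, 3 were higher and 0 lower, where 4.55% of all probes were higher and 3.96% lower.

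*Lgals3* read 1.33, 0.72 and 0.78 in P13-O/P9-N (mean 0.95, SE 0.15, limma adjusted p = 0.0014, 1.93-fold). *C3* read 0.95, 0.52 and 0.57 (mean 0.68, SE 0.10, adjusted p = 0.00062, 1.6-fold). *Ccl12* read 1.17, 0.60 and 0.77 (mean 0.85, SE 0.18, adjusted p = 0.0099, 1.8-fold). Replicate 1 was the highest for all 3 genes, and without it the call of *Ccl12* was lost (adjusted p = 0.1) while those of *Lgals3* and *C3* held.

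The members that were higher at P9 than at P30 read near 0 against P9. *Cd68* probe 2 read 0.06, 0.04 and -0.12 (mean -0.01, 95% interval -0.23 to 0.22, limma adjusted p = 0.98), and probe 1 read 0.31, 0.13 and 0.19 (mean 0.21, adjusted p = 0.25). *C1qb* read -0.08, 0.12 and -0.08 (mean -0.01, 95% interval -0.23 to 0.21). *C1qa* read -0.04, -0.11 and -0.37 (mean -0.17, adjusted p = 0.39), *Csf1r* 0.05, 0.31 and -0.04 (mean 0.10, adjusted p = 0.58) and *Tyrobp* -0.25, 0.08 and 0.35 (mean 0.06, adjusted p = 0.9). The difference between P13-O/P9-N and P13-O/P13-N gives the ratio of normal P13 over normal P9 retina indirectly. It was -0.64 for *Cd68* probe 2 (SE 0.15, adjusted p = 0.025), where 2.83% of all probes were higher and 1.71% lower, and 5 of the 6 single arrays left out ended the call (up to 0.094). For *C1qb* and *C1qa* it was -0.42 and -0.34 (adjusted p = 0.14 and 0.27), and for *Lgals3* and *C3* it was -0.16 and -0.15 (adjusted p = 0.8 and 0.69).

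Over the 15 arrays the member probes fell into a pair of sets by likeness, given here as a description, since arrays of a comparison share its groups and some share pools. The readings of *Lgals3* and *C3* correlated at 0.94, those of *C3* and *Ccl12* at 0.84 and those of *Lgals3* and *Ccl12* at 0.82 (Pearson's r). *C1qb* correlated with *Cd68* probe 2 at 0.83 and with *Csf1r* at 0.79, while *Csf1r* correlated with *Cd68* at 0.40 and with *C1qa* at 0.26. Between the sets r ran between -0.42 for *C1qa* with *Ccl12* and -0.03 for *Cd68* with *Ccl12*.

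Among the 7856 probes of other genes with a value on every array, those most like *Lgals3* were *3632451O06Rik* (r = 0.97), *Smtnl2* and *Acta2* (0.95 each). Those most like *C3* were the steroid dehydrogenase gene *Hsd17b2* and *Acta2* (0.96 each) and *S100a16* (0.95). *Acta2*, the actin of smooth muscle, pericytes and myofibroblasts, was thus shared by both. Most like *Ccl12* were the purine receptor gene *P2rx4* and the haem oxygenase gene *Hmox1* (0.89 each) and *Mlh3* (0.86). Most like *C1qb* were *Gtf2h3* (0.96), *Tmsb4x* and *St8sia4* (0.95 each), and *Csf1r* was most like *1700025E21Rik* and *Slc31a1* (0.94 each). *Cd68* probe 2 came closest to *Ssr2* (0.93) and *C1qa* to *Hnrnpc* (0.87).

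Of the other genes of these pathways that were tested, 1 passed at P13-O/P13-N. Among all 14436 probes tested there, 1760 had an unadjusted p under 0.05 in either direction. Of 13 other genes of microglial activation tested, 0 passed in either direction in limma and in SAM (median 0.06), and 1 higher and 1 lower, *Cd9* and *Apoe*, had an unadjusted p under 0.05. Of 11 other genes of resident microglia 0 passed in limma or SAM (median 0.03), with *Trem2* and *Fcer1g* higher at an unadjusted p under 0.05. Of 9 other complement genes 0 passed in limma or SAM (median -0.08), with *Serping1* higher and *Clu* lower at an unadjusted p under 0.05.

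Of 10 other chemokine genes tested at P13-O/P13-N 1 passed, and it was lower. *Cx3cl1*, the neuronal ligand of the microglial receptor *Cx3cr1*, read -0.38, -0.26 and -0.36 (mean -0.33, SE 0.07, limma adjusted p = 0.03), and the call was lost without any of the 3 arrays (0.072 to 0.19). *Cx3cr1* itself read a mean of -0.13 (adjusted p = 0.74). The chemokine *Ccl4*, which the study lists as higher in this comparison, had too few readings to be tested here. Of 5 genes of Fc receptors and antigen presentation 0 passed in limma or SAM, with a median of 0.33 and *B2m*, *Fcgr2b* and *H2-D1* higher at an unadjusted p under 0.05.

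At P12-O/P12-N, *Trem2*, a lipid-sensing receptor that signals through *Tyrobp*, read 0.38, 0.37 and 0.48 (mean 0.41, limma adjusted p = 0.028, but 0.064 to 0.15 without 1 array). It was the 1 higher of 13 other resident genes, and *Selplg* was the 1 lower (-0.37, adjusted p = 0.049, but 0.061 to 0.27 without 1 array). *Ackr2*, a scavenger that binds inflammatory CC chemokines without signalling, fell by 0.84 (SE 0.09, adjusted p = 0.00073), and this held without each array. *Clu* and *Vtn*, whose proteins restrain the end stage of complement, fell by 0.48 and by 0.82 (adjusted p = 0.018 and 0.0098). Both were lost without replicate 1 and without replicate 3 (up to 0.12 and 0.095). Of 16 other activation genes at P12 0 passed in limma or SAM. The number higher at an unadjusted p under 0.05 was 2, beside 3877 of all 16516 probes in either direction. Of 10 other chemokines 1 passed, lower. At P8-O/P8-N *Ackr2* was the single gene of the pathway lists that passed, lower at -0.46 (adjusted p = 0.045, but 0.055 to 0.21 without 1 array).

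At P9-N/P30-N the third C1q chain and an Fc receptor rose beside *C1qb*. *C1qc* read 1.25, 1.28 and 1.08 (mean 1.20, SE 0.10, limma adjusted p = 2e-06), and *Fcgr3*, the low-affinity IgG receptor of phagocytes, read 1.15, 1.20 and 1.21 (mean 1.18, SE 0.09, adjusted p = 3.8e-07). *C1qc* was thus nearer to *C1qb* than to *C1qa* in size. The inhibitors *Vtn* and *Clu* were lower at P9, with means of -2.81 and -1.99 (adjusted p = 1.5e-08 and 1.2e-08). Of 9 other complement genes tested these 3 passed, 1 higher and 2 lower.

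*Cx3cl1* read a mean of -1.40 at P9-N/P30-N (SE 0.07, limma adjusted p = 8.9e-09), the lowest of 4 chemokines that were lower among 9 tested. The other 3 were *Ccl9* (-0.95), *Cxcl9* (-0.31) and *Cxcl16* (-0.28), of which *Cxcl9* was lost without replicate 3 (0.052) and *Cxcl16* without replicates 2 and 3 each (up to 0.083). Of 8 other resident genes *Tgfbr1* (0.62) and *Trem2* (0.36, 2 arrays) were higher and *Il34*, a ligand of *Csf1r*, was lower (-1.11, 2 arrays). Of 13 other activation genes *Ctsb* (-0.66) and *Apoe* (-0.36, up to 0.079 without 1 array) were lower and 0 higher in limma. At an unadjusted p under 0.05 there were 4 lower (*Apoe*, *Cd14*, *Ctsb* and *Spp1*) and 0 higher, and SAM called 4 lower and 0 higher. Among all 13818 probes tested, 5872 had an unadjusted p under 0.05 in either direction.

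In P13-O/P9-N, of 18 other activation genes 3 were higher and 2 lower, of 13 other complement genes 2 and 1, and of 13 other chemokines 2 and 0. Of all probes tested there, 4.55% were higher and 3.96% lower. The chemokine *Ccl4* read 1.66, 1.12 and 1.15 (mean 1.31, SE 0.13, limma adjusted p = 0.0041) beside the rise of *Ccl12*. *Spp1*, which encodes the secreted phosphoprotein osteopontin, was lower (-1.54, SE 0.28, adjusted p = 0.0034), while *Ctsb* (0.34) and *Cd9* (0.55) were higher. *Cx3cr1* had 2 readings here and a mean of -0.57 (adjusted p = 0.048). The inhibitors *Vtn* (1.51) and *Clu* (1.15) were higher (adjusted p = 3.4e-05 and 1.4e-05). Of these, *Ctsb* was lost without replicate 2 (0.079) and *Cd9* without any array (0.095 to 0.28). The remaining activation calls were *Ctsd* (0.21) and *Ctsz* (-0.44). *Ctsd* was lost without any array (0.064 to 0.16) and *Ctsz* without replicate 2 or 3 (up to 0.18). The lower complement gene was *Cr1l* (-0.48), which was lost without replicate 3 (0.069). *Cx3cr1* had no reading on replicate 3, yet without that array its adjusted p was 0.064. Without either of its 2 readings *Cx3cr1* could not be tested.

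**Figure D3:**
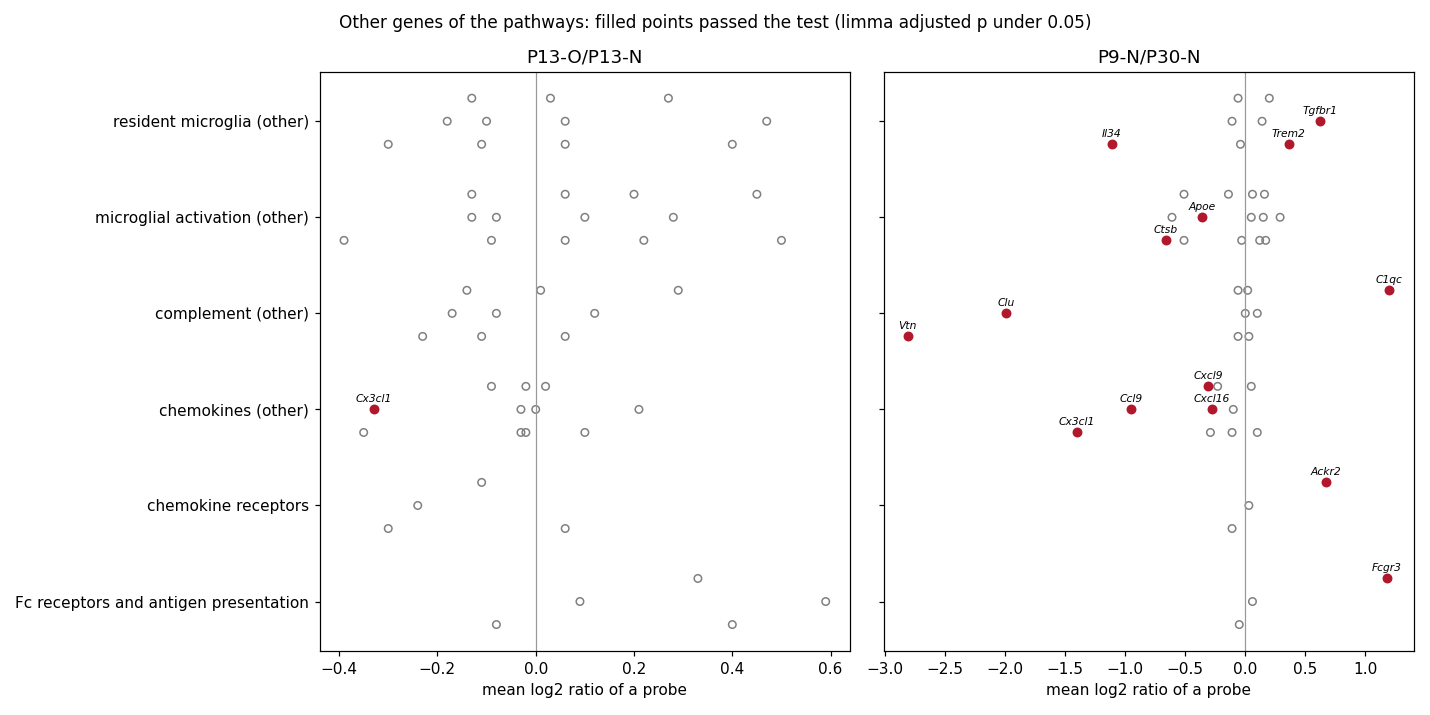
Mean log2 ratio (horizontal axis) of each probe of the other pathway genes, by list (rows), in the panels P13-O/P13-N (left) and P9-N/P30-N (right), with filled red points for a limma adjusted p under 0.05. At P13-O/P13-N *Cx3cl1* is the single filled point, at -0.33, while at P9-N/P30-N *C1qc* and *Fcgr3* lie at 1.20 and 1.18 and *Vtn* and *Clu* at -2.81 and -1.99.

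Markers of other cell types moved beside the members. At P13-O/P13-N 3 of 7 endothelial markers were lower in limma and 0 higher, with array medians of -0.33, -0.34 and -0.37, while SAM called 0. Of these, *Cldn5* held without each array and *Cdh5* was lost without replicate 3 (0.061). *Slco1c1* could be tested with an array left out in 1 setting only (0.028). At P12-O/P12-N 6 of 7 were lower in limma, and SAM called 6. There *Slco1c1* was lost without replicate 1 or 2 (up to 0.16) and *Tie1* without replicate 3 (0.063). Of 6 Müller glia markers *Vim* was higher (1.11, limma adjusted p = 0.0006) and *Glul* lower (-0.68, adjusted p = 0.021, but 0.19 at most without replicate 1 or 2). Of 8 monocyte and neutrophil markers 5 were on the array and 1, *Mpo*, was tested, at 0.35 on 2 arrays (limma adjusted p = 0.36). *Mpo* was thus not called, though it was higher at an unadjusted p under 0.05. Of the lymphocyte markers 3 were tested, with 0 called in limma or SAM and 0 at an unadjusted p under 0.05. In P9-N/P30-N, where the C1q chains, *Cd68* and *Csf1r* were higher, all 4 rod markers tested were lower, with array medians of -1.59, -1.81 and -1.77. Of 6 endothelial markers 4 were higher and 0 lower there (median 0.36), and of 6 Müller glia markers 2 were higher and 3 lower. Of 5 border macrophage markers 1, *Lyve1*, was tested there, and it was lower (-1.54, limma adjusted p = 4.5e-07).

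In P13-O/P9-N, where *Lgals3*, *C3* and *Ccl12* were higher, 3 of 4 rod markers were higher, with array medians of 1.23, 1.29 and 0.91. Of 6 Müller glia markers 4 were higher and 0 lower (median 0.43), of which *Car14* was lost without replicate 2 or 3 (up to 0.33) and *Dkk3* without replicate 2 (0.13). *Lyve1*, the 1 border macrophage marker tested, was higher (1.07, limma adjusted p = 6.2e-05), and of 6 endothelial markers 1, *Cldn5*, was lower. The part of these cell types in the values of *Lgals3*, *C3*, *Ccl12*, *Cd68* and C1q was not tested.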

How the data were processed

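RNA pools of mouse retina were hybridised in pairs to two-colour whole-genome oligonucleotide arrays, with dyes swapped for each pair, and pools of different litters served as replicates. The authors deposited normalized log2 ratios, 1 column per array, which were used as given. The normalization, background correction, joining of dye orientations and blank rule are not given in the sources used here. Compression of ratios or a changed blank rule would move the sizes and the number of genes tested. The arrays held 12008 to 21189 values each. There were 9839 probes measured on all 15 and 7965 on 0 arrays. Precision is limited by the number of arrays.

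The signs were set against directions that the study's tables list: 12 of 12 genes at P8, 35 of 36 at P13 and 14 of 14 for P9 against P30 had the listed sign after the P9 and P30 arrays were negated. Of the probes 21020 had 1 symbol and 8902 had no symbol. Of 16675 symbols 13905 were current in the RefSeq gene table and 2728 were matched through a synonym.

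All 15 arrays entered 1 limma 3.58.1 fit in R 4.3.3 with a mean per comparison and no covariate. Probes with at least 2 of 3 arrays were tested, with Benjamini-Hochberg adjustment and no fold cutoff. The procedure was tested on simulated data. The alternatives tried were a separate fit of each comparison, SAM written out from its formula (5% false discovery rate), a 1.5-fold cutoff, an adjusted p under 0.01, median centring, equal spread of arrays, array weights with robust eBayes, other probe sets, a replicate block and leaving out each array.

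All members were named with every probe, beside up to 4 called genes per list and direction and the 3 likest probes. Genes of the lists with an unadjusted p under 0.05, and the marker genes, were named after their values were seen. The members and lists were chosen with earlier results of these data known. Tables and figures were made with Python 3.11.15 and matplotlib 3.10.9. The real-time PCR and histology were not analysed here.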

Additional observations from a re-analysis of the deposited data

Results flagged for a closer look

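A difference of the OIR effect between ages was called for *C3* and *Lgals3*, by a test of the difference itself. For *Lgals3* the log2 ratio in P13-O/P13-N exceeded that in P8-O/P8-N by 1.08 (95% interval 0.62 to 1.54, limma adjusted p = 0.021) and that in P12-O/P12-N by 1.34 (0.88 to 1.8, adjusted p = 0.0059). For *C3* the excess was 0.97 over P8 (0.66 to 1.27, adjusted p = 0.0023) and 0.98 over P12 (0.68 to 1.28, adjusted p = 0.0026). All 3 arrays of P13-O/P13-N lay above all 6 of the earlier ages for both genes. The difference of *Lgals3* from P8 was lost without P13 replicate 1 or 2 or P8 replicate 1 or 2 (up to 0.12). It was also lost at an adjusted p under 0.01. The differences of *C3*, and that of *Lgals3* from P12, held without each single array.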

How the results depend on the processing

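Over the member probes, 899 values under an alternative kept their side of the threshold, 40 no longer passed and 13 newly passed. The sign changed in 32 of the 952 values, which then lay at -0.13 to 0.10, and 0 of these 32 passed before or after the change. The count of member genes higher at P8-O/P8-N was 1 with array weights, where 455 probes of all were higher, beside 28 in the main fit. At P12-O/P12-N the count of 1 became 0 with the 1.5-fold cutoff, at an adjusted p under 0.01, in a separate fit and in SAM, and was 0 to 0 with 1 array left out. At P13-O/P13-N the count of 4 was 0 in a separate fit, 2 in SAM, and 2 to 4 with 1 array left out. The 2 genes whose effect exceeded that at P8 became 1 at an adjusted p under 0.01 and 1 to 3 with 1 array left out. The 1 gene lower in the indirect ratio of P13 over P9 became 0 at an adjusted p under 0.01 and 3 with array weights (*Cd68*, *C1qa* and *C1qb*), and 0 to 1 with 1 array left out. With array weights 892 probes of all were lower in that ratio, beside 246 in the main fit. The counts for P13-O/P9-N and P9-N/P30-N stayed within 1.5 times, and the cause of these moves was not tested. Same-numbered arrays of different comparisons correlated in their deviations at -0.261 to 0.255 over 30 pairs, with 5 above 0.1, so the numbers were not taken to pair the arrays throughout. The highest 2, 0.255 for replicate 1 and 0.231 for replicate 3, were those of P13-O/P13-N with P13-O/P9-N, whose OIR pools are likely the same, while replicate 2 of that pair gave -0.0388. The indirect ratio of *Cd68* probe 2 was -0.64 with the block too (adjusted p = 0.023). With the replicate number as a block the counts were 0, 1, 4, 3 and 3 in the 5 comparisons, where *C1qa* at P9-N/P30-N no longer passed (adjusted p = 0.057). The 3 arrays per comparison, and the low correlation of replicates at P8, limit the detection of small changes.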
